A study of Mus musculus with 30 samples.

Results

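Esrrb encodes the estrogen-related receptor beta, an orphan nuclear receptor of the pluripotency network of mouse embryonic stem cells. It was followed here bin by bin in 15 lists of called N6-methyladenosine (m6A) peaks. Every row of a list whose gene identifier was ENSMUSG00000021255 was taken. These were 111 of 204208 rows, and they fell on 39 different bins of 100 nt among 62091 different bins called in any list. The gene was chosen by its called bins in these same lists, with the differences between lines already known, so its values are described and not tested. Esrrb was called in all 15 lists, as were 5.71% of all genes called in any.

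The study asked how arginine methylation of METTL14 bears on m6A, and compared 5 lines of C57BL/6 mouse embryonic stem cells grown with LIF in serum. WT is the wild-type line and KO lacks METTL14. The other lines are the knockout rescued with METTL14 (KO+WT) or with arginine methylation-deficient METTL14 of the 5RK or the 13RK form (KO+5RK, KO+13RK), so the 3 rescue lines all carry the knockout that WT cells do not. Each line had 3 libraries made by immunoprecipitation with an m6A antibody, with 1 peak list each, and 3 input libraries, whose values were not analysed here. The labels do not say whether a line was 1 clone, how METTL14 was put back, or if replicates are independent cultures, and the SDs given below may therefore be technical.

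m6A is written on messenger RNA by a complex in which METTL3 carries the catalytic site and METTL14 holds the RNA. The mark is read by YTH proteins and is known for speeding the decay of transcripts, and in embryonic stem cells transcripts of pluripotency factors are among those that carry it. ESRRB itself acts downstream of the GSK3 and Wnt arm of the naive network, where it binds DNA beside OCT4, SOX2 and NANOG and can take over functions of NANOG.

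The lists held from 6328 to 23164 peaks and were longest in WT and shortest in KO. Read depth per bin is unknown, and a bin without a call is not a bin without m6A. The loss of Mettl14 could not be checked in these lists, since a peak call is not an expression value. Of 10 embryonic stem cell markers, Esrrb itself among them, 7 had a peak in each WT list and 6 to 10 in the lists of the other lines. Peaks in 8 fibroblast markers numbered 24 to 31 in WT lists and 0 to 6 elsewhere, and the fibronectin gene Fn1 alone held 30, 23 and 23 of the WT peaks. The number of these markers with a peak was 2 to 3 in both WT and KO, with no call of Col1a2 or Lox in any list. Their part in the results on Esrrb was not tested.

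Esrrb lies on chromosome 12 from 86361117 to 86521628 on the plus strand (GRCm38, RefSeq span), with a second annotated start at 86421644. The first bin called in any list began 12474 nt downstream of that inner start, and the last ended 111 nt before the annotated end of the gene. No other RefSeq gene overlapped this part, and no bin of another gene was called inside it. Only the span of the gene was used, so the exon, intron or untranslated region of each bin was not analysed here, and neither was its sequence.

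Most of the WT calls on Esrrb fell on 3 short sites, and KO called none of them. KO cells nevertheless had as many Esrrb bins as WT cells, at other places in the gene. The first site was chr12:86470318-86470517 (2 bins), the second chr12:86519018-86519217 (2 bins) and the third chr12:86521218-86521517 (3 bins). They ended 51111, 2411 and 111 nt before the end of the gene. Of their 7 bins, 6 were called in all 3 WT lists, and all 6 of these were absent from every KO list. Over all genes, 79.9% of the bins called in every WT list were absent from KO.

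**Figure D1:**
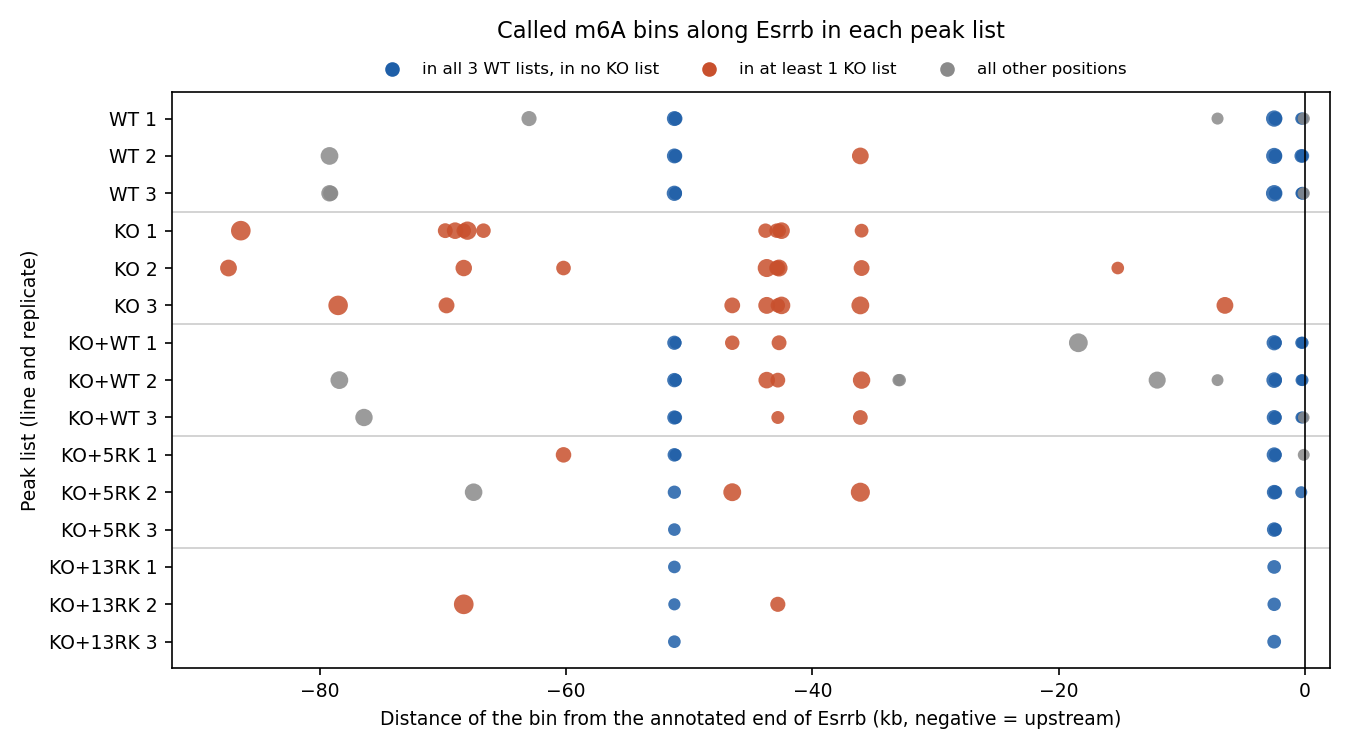
Called bins along Esrrb, with the distance from the annotated gene end in kb on the horizontal axis and the 15 peak lists on the vertical axis; each point is 1 called bin and its area grows with the deposited enrichment value. Blue points (the 6 positions called in all 3 WT lists and in no KO list) form columns near the gene end and 51111 nt upstream in every line but KO, and orange points (21 positions called in at least 1 KO list) are scattered upstream of the last 6511 nt, on both sides of the inner blue column.

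The number of Esrrb bins per list was 9, 8 and 9 in WT, 11, 9 and 8 in KO, and 9, 14 and 10 in KO+WT. It was 6, 7 and 3 in KO+5RK and 2, 4 and 2 in KO+13RK. The order of the means was KO+WT (11.0 ± 2.65, SD, n = 3), then KO (9.33 ± 1.53), then WT (8.67 ± 0.577), and last the mutants KO+5RK (5.33 ± 2.08) and KO+13RK (2.67 ± 1.15). The ranges of KO+WT, KO and WT overlapped, as did those of KO+5RK and KO+13RK, while every WT list lay above every KO+5RK list. Of the genes called in every WT and KO list, 30.1% had a mean in KO at or above that in WT, and 4.62% also had fewer bins in KO+5RK than in WT and fewer still in KO+13RK. When every list was reduced to its 6328 rows of smallest p, the mean was 5.0 ± 1.0 for WT, 9.0 ± 1.73 for KO and 5.0 ± 1.73 for KO+WT. The mutants then had 4.0 ± 1.0 (5RK) and 2.67 ± 1.15 (13RK), so that the gap between WT and 5RK was no larger than the SD of either. With only rows of a q under 0.005, the mean was 5.33 ± 0.577 for WT, 5.0 ± 1.73 for KO+WT and 3.33 ± 0.577 for the 5RK line. It was 2.0 ± 1.73 for the 13RK line and lowest for KO (1.33 ± 1.53).

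Esrrb was among the genes with the most bins in the KO and the KO+WT lists. In KO 0.514%, 0.64% and 1.06% of the called genes had as many bins or more in replicates 1, 2 and 3. The shares were 1.21%, 0.325% and 0.792% in KO+WT, which overlapped those of KO and held the lowest of the 15 lists. They were 3.31%, 4.23% and 2.86% in WT, 3.38%, 1.64% and 20.8% for the 5RK mutant, and 43.5%, 7.75% and 46.6% in KO+13RK. Per 10000 peaks of the list, Esrrb had 12.5 ± 4.32 bins in KO and 3.82 ± 0.267 in WT (SD, n = 3). The rescue with METTL14 had 7.17 ± 0.921 on this scale, the 5RK mutant 4.27 ± 1.44 and the 13RK mutant 2.68 ± 1.30. On this scale the lowest KO list (9.31) lay above the highest list of any other line (8.15, in KO+WT). KO lists were the shortest, so the scale raises KO more than the bin numbers do.

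The total hid 2 kinds of position, whose calls in WT and KO are part of how they were defined. The 6 positions recurrent in WT were all called in each WT list, by their definition, and also in each KO+WT list. The 5RK lists called 4, 4 and 3 of them, each 13RK list called 2, and KO lists called none. Positions that any KO list called numbered 11, 9 and 8 in the KO lists, by the way they were defined, and 0, 1 and 0 in WT. KO+WT lists called 2, 3 and 2 of them, the 5RK lists 1, 2 and 0, and the 13RK lists 0, 2 and 0. WT and KO thus had similar totals made of different bins, and KO+WT lists carried bins of both kinds.

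**Figure D2:**
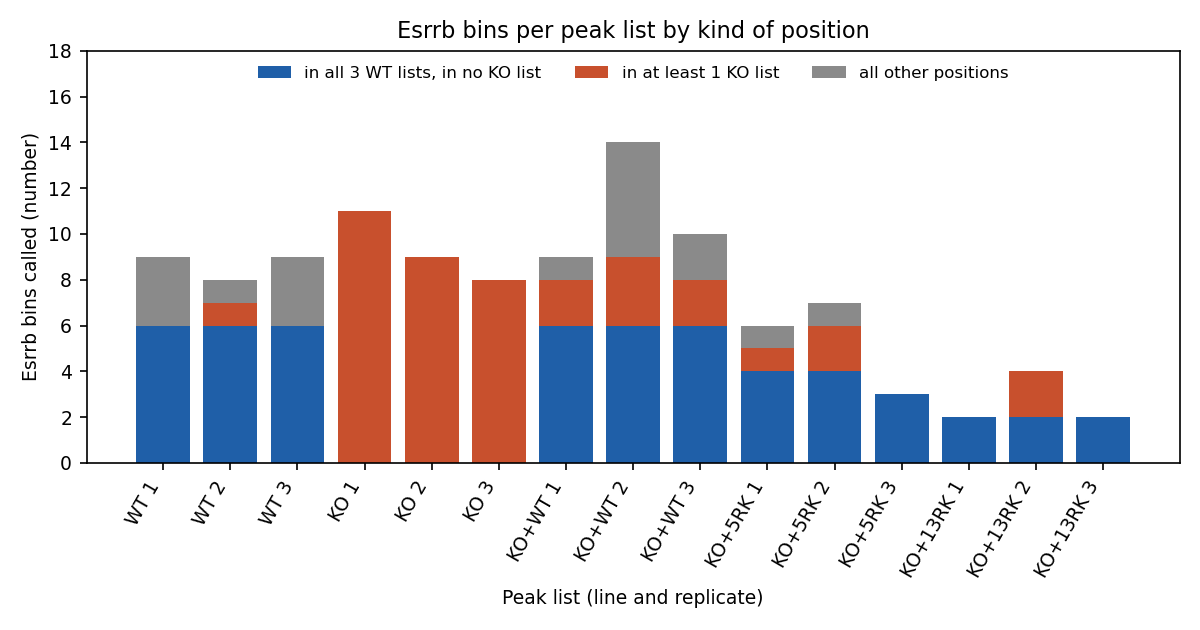
Esrrb bins per peak list, as bars that start at 0 and are divided by kind of position (blue, called in all 3 WT lists and in no KO list; orange, called in at least 1 KO list; grey, all other positions). The blue part is 6 in each WT list and 0 in KO by definition, and it is 6 in each KO+WT list, 3 or 4 in KO+5RK and 2 in KO+13RK. In KO all bins are orange by definition.

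The site nearest the gene end but one held the strongest call of the gene by p, though not in every list by enrichment value. Its first bin, chr12:86519018-86519117, had the smallest deposited p of all Esrrb bins in 12 of the 12 lists outside KO. Its enrichment value, a score of the authors' own whose scale is not given, was 1.83, 1.78 and 1.87 in WT and 1.52, 1.63 and 1.43 in KO+WT. It was 1.47, 1.37 and 1.34 in KO+5RK and 1.13, 1.07 and 1.15 in KO+13RK. The values of KO+13RK lay below those of every other line that called the bin and the WT values above, while those of KO+WT and KO+5RK overlapped. Within their own lists these values stood at percentiles 70.9 to 74.6 for WT and 57.1 to 69.5 for KO+WT. The mutants stood at 52.4 to 59.3 (5RK) and 31.6 to 34.9 (13RK). Lists of different length and unknown scaling were compared here side by side, so the order is a description of the deposited values and not a measured change in methylation.

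The inner site, 51111 nt before the gene end, had the same order of line means. The enrichment value of its first bin, chr12:86470318-86470417, was 1.45, 1.44 and 1.54 in WT and 1.27, 1.30 and 1.26 in KO+WT. It was 1.10, 1.03 and 0.88 in KO+5RK and 0.88, 0.78 and 0.89 in KO+13RK. All WT values lay above all KO+WT values, and these above all values of the mutants, while KO+5RK and KO+13RK overlapped, at 0.88 and 0.89. An enrichment value is the authors' own per bin and serves here to describe bins, not to measure a change. These 2 first bins were the only Esrrb positions called in all 12 lists outside KO.

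The other 4 recurrent positions were called in no KO+13RK list and in 0 to 3 KO+5RK lists. The second bin of the site near the gene end, chr12:86519118-86519217, was called in all 3 KO+5RK lists, at 0.88, 1.08 and 0.94, and in no KO+13RK list. In WT its value was 1.09, 1.04 and 0.97 and in KO+WT 0.91, 0.97 and 0.89, so that the 3 lines overlapped. The second bin of the inner site, chr12:86470418-86470517, was called in 1 KO+5RK list, at 0.77, and in no KO+13RK list. Its WT values were 1.14, 1.04 and 0.95 and its KO+WT values 0.74, 0.89 and 0.96, which overlapped. Each second bin had a lower value than the first bin of its site in every list that called both.

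The site that ends 111 nt before the gene end had the lowest mean values in WT and KO+WT, with single lists that overlapped those of the second bins above, and was called in no KO+13RK list. Its first bin, chr12:86521218-86521317, had values of 0.76, 1.12 and 0.69 in WT, 0.75, 0.64 and 0.68 in KO+WT and 0.74 in the single KO+5RK list that called it. Its middle bin, chr12:86521318-86521417, had values of 0.75, 1.04 and 0.97 in WT and 0.79, 0.73 and 0.74 in KO+WT, and was called in neither mutant. The last bin, chr12:86521418-86521517, was called in 2 WT lists, 1 KO+WT list and 1 KO+5RK list. WT replicate 2 had the highest value in the first and the middle bin and no call of the last. The deposited q of the first bin, with a limit of 0.05, was 0.0138, 6.21e-06 and 0.047 in WT. In KO+WT it was 0.0165, 0.0474 and 0.042. Within 3000 nt of the gene end, WT lists called 5, 4 and 5 bins, KO+WT lists 4, 4 and 5, KO+5RK lists 3, 3 and 2, KO+13RK lists 1 each and KO lists none. Such counts over all genes are not given here, so these describe Esrrb alone.

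**Figure D3:**
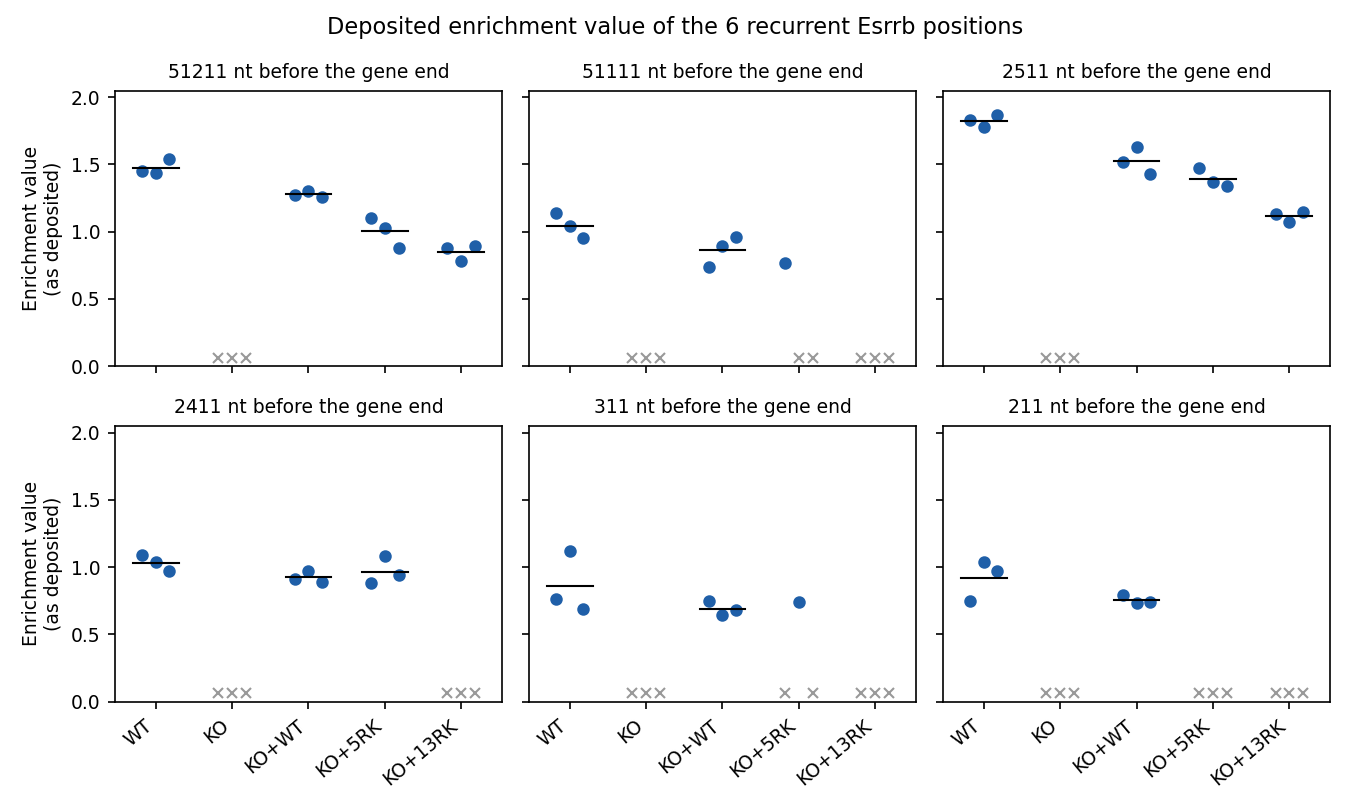
Deposited enrichment value (vertical axis, from 0, scale as deposited) of the 6 recurrent Esrrb positions in the 3 lists of each line (horizontal axis); points are lists, short bars are means where all 3 lists called the bin, and grey crosses mark lists without a call. At the 2 positions called in all 12 lists outside KO, the WT points are highest, and the KO+13RK points are lowest at the position near the gene end and overlap the lowest KO+5RK point at the inner one.

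Between lines, 6 of the 6 bins called in every KO+WT list were absent from KO, where 70.9% of such bins over all genes were absent. The count was 3 of 3 bins for KO+5RK, against 66.5% over all genes, and 2 of 2 for KO+13RK, against 60.5%. From WT to KO+WT 0 of 6 recurrent bins were lost, against 15.3% over all genes. From KO+WT to KO+5RK 1 of 6 was lost, the middle bin of the last site, against 7.48%. From KO+WT to KO+13RK 4 of 6 were lost, against 16.8%. With lists of equal length 1 was lost, where fewer than 6 bins were called in every KO+WT list. These lines were among those in which Esrrb was noticed, so the shares over all genes stand beside the counts without a test.

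The calls of the knockout were scattered. They fell on 21 positions between 86434118 and 86515117, none closer to the gene end than 6511 nt. How far KO calls lie from the gene end over all genes is not given here. None of the 21 was called in all 3 KO lists, 7 were called in 2 and 14 in 1. Over all genes 15.1% of the bins called in any KO list were called in all 3, and 25.8% of those had no WT call. In WT 6 of 12 Esrrb positions recurred in all 3 lists, against 30.5% over all genes. In the rescue lines 6 of 20 (KO+WT), 3 of 10 (5RK) and 2 of 4 (13RK) did, against 22.9%, 17.8% and 16.6%. Only 1 of the 21 KO positions was called in any WT list. This bin, chr12:86485418-86485517, was called in KO replicate 3 at an enrichment value of 2.29 and in WT replicate 2 at 1.95. It is 4.76% of the KO positions and 8.33% of the 12 WT positions, where over all genes 37.8% of KO bins and 16.0% of WT bins were called in the other line. Without either of these lists the 2 lines shared no Esrrb position.

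Some of the KO positions fell into shared blocks when bins up to 100 nt apart were joined, while others stayed single bins. The 39 positions then made 26 blocks, of which 3 were called in all 3 KO lists and 3 in all 3 WT lists, and none of the 3 WT blocks was called in any KO list. The KO blocks were chr12:86477718-86477917, chr12:86478618-86479117 and chr12:86485418-86485617, which lie between the inner site and the sites at the gene end. The first had no WT call and was called in 1 KO+WT list. The second, of 4 called bins, had no WT call and was called in all 3 KO+WT lists and 1 KO+13RK list. The third was called in 1 WT, 2 KO+WT and 1 KO+5RK list. Of all blocks called in every KO list, 24.4% had no call in WT, and of all blocks called in every WT list, 68.1% had none in KO. Without any WT call were 2 of the 3 Esrrb blocks of KO.

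Each rescue line called some of the KO positions. KO+WT lists called 6 of the 21 (28.6%), KO+5RK lists 3 (14.3%) and KO+13RK lists 2 (9.52%), and over all genes these shares were 37.4%, 33.5% and 33.4%. As shares of each rescue line's own Esrrb positions they were 6 of 20 for KO+WT, 3 of 10 for the 5RK line and 2 of 4 for the 13RK line, where over all genes 21.7%, 22.5% and 26.5% of the line's bins were called in KO. The most often shared was chr12:86478718-86478817, called in 2 KO lists, 2 KO+WT lists and 1 KO+13RK list. KO+13RK replicate 2 was the only list of its line with a call outside the 2 constant bins, with 2 such bins that KO also called.

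The 6 recurrent positions also differed from all other Esrrb positions in how the deposited enrichment value related to the deposited p. The others were those called in KO together with those of neither kind. In KO lists the enrichment value of Esrrb rows ran from 0.88 to 2.87 with a median of 1.71, and the p from 7.04e-07 to 0.000521. At the 6 recurrent positions, in the other lines, the value ran from 0.64 to 1.87 with a median of 1.03, and the median p was 4.36e-08. Among rows with a value of 1.2 or more, the 15 rows at recurrent positions had a p of 9.11e-12 or less, and 5 of them were listed at 0. The 46 rows at other positions had a p of 7.04e-07 or more. Within lists that held both recurrent and other positions, the median p was smaller at the recurrent positions in 9 of 9. The median enrichment value was higher at the others in 8 of 9. In WT replicates 1 and 3 none of these others was a position called in KO. The exception was WT replicate 1, with 1.12 at the recurrent positions and 0.8 at the others. The recurrent positions were defined by a call in every WT list, and a call rests on q. A smaller p at them is therefore in part built into the definition. The coverage behind each bin is unknown.

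**Figure D4:**
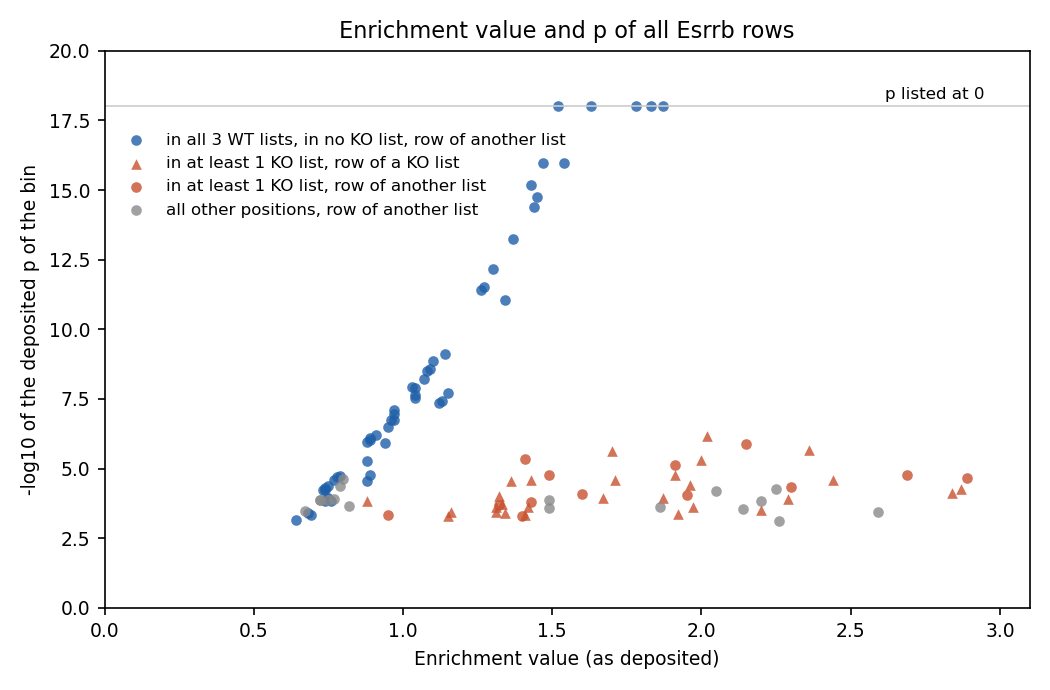
Deposited enrichment value (horizontal axis) and -log10 of the deposited p (vertical axis) of all Esrrb rows; each point is 1 bin in 1 list, triangles are rows of KO lists, colours give the kind of position, and rows with p listed at 0 are drawn on the top line. Recurrent positions rise steeply with enrichment, while positions called in KO stay at a p of 7.04e-07 or more up to an enrichment value of 2.89.

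By the strongest p, Esrrb ranked high in its lists outside KO. Its best bin stood at the 99.4 ± 0.0498 percentile by p for WT and at 99.5 ± 0.269 for KO+WT. For the mutants it stood at 98.7 ± 0.316 (5RK) and 94.5 ± 1.21 (13RK), each the mean of 3 lists with its SD. In KO it stood at 72.6, 86.4 and 77.7. By mean enrichment percentile the order was reversed for KO, which had 68.0 ± 8.14, against 34.7 ± 9.34 for WT and 34.1 ± 5.68 for KO+WT. The mutants had 36.0 ± 14.9 (5RK) and 31.2 ± 16.9 (13RK). These percentiles come from lists of different length and show no change by themselves.

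The genes around Esrrb in the pluripotency network were described by the same counts. Of 28 genes listed, 27 had a call in some list and 20 were called in all 3 WT lists. Of these 20, 5 had no call in KO (25%, against 31.5% of all genes called in every WT list): the T-box factor Tbx3, the homeobox factor Gbx2, and Il6st, Jak1 and Socs3 of LIF signalling. In the other direction Dppa3, a maternal factor that guards DNA methylation, was called in all 3 KO lists and no WT list (1 of 10 genes called in every KO list, against 4.89% of all such genes). By mean bins per list, 19 genes had fewer in KO than in WT, 4 as many and 4 more, in WT lists that were all longer than the KO lists. Over all genes, 61.5% had fewer in KO. With lists of equal length the order of WT and KO turned around for Tfcp2l1, Lifr and Ctnnb1, and the means were equal for Tet2 and Sox2. Of the 20 genes with a bin in every WT list, 13 had all such bins absent from KO, where the share over all genes with such a bin was 70.9%. Among those that were also called in every KO list, as Esrrb was, it was 3 of 8 (Nanog, Tet2 and Lifr), against 37.5% over all genes and 21.2% over genes with 6 or more such bins. Esrrb itself was not counted among the 28.

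Among nuclear receptors and cofactors, the coactivator gene Ncoa3, whose product binds ESRRB, had 9 bins in each WT list, 6 in each KO+WT list and 5 in each 5RK list. It had 1, 1 and 3 bins in KO and 2, 3 and 4 in the 13RK line. The orphan receptor gene Nr5a2 had 7 in each WT list, 1, 1 and 0 in KO, 7, 8 and 7 in KO+WT, 6, 4 and 4 in the 5RK line and 3, 1 and 4 in the 13RK line. For both genes WT and KO did not overlap. At equal list length the mean of WT minus KO fell from 7.33 to 2.33 for Ncoa3 and from 6.33 to 1.67 for Nr5a2. The corepressor gene Nr0b1 went the other way, with 1.67 ± 1.15 in WT, 3.33 ± 1.15 in KO and 3.67 ± 1.15 in KO+13RK, values that overlapped. The close relatives of Esrrb were hardly called, Esrra with 1 bin in 1 KO+WT list and Esrrg in no list.

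Of the 12 naive pluripotency factors, 9 had a lower mean in KO than in WT, beside the 61.5% over all genes. Among the 9, Klf4 (2, 1 and 3 bins in WT and 0, 2 and 3 in KO) overlapped. So did Sall4 (3, 5 and 4 in WT and 0, 0 and 3 in KO) and Klf5 (1 in each WT list and 1, 0 and 0 in KO). Prdm14 had 1 bin in 1 WT list and none in KO. Tfcp2l1, a transcription factor of the LIF response, had 9.33 ± 2.08 bins in WT and 5.33 ± 1.15 in KO, an order that turned around at equal list length, and all 7 of its KO positions were called in WT as well. Tet2, a DNA demethylation enzyme gene, had 7.67 ± 1.53 in WT and 2.33 ± 0.577 in KO, and Tbx3 had 4 bins in each WT list and none in KO (SD, n = 3). For Tet2, as for Esrrb, no bin called in all 3 WT lists was called in KO. None of the 3 KO positions of Tet2 was called in WT, whereas 1 of the 21 of Esrrb was. Nanog, a core homeobox factor of the naive state, was like Tet2 in both respects. It also had no fewer bins in KO, with 2 in each WT list and 4, 2 and 4 in KO. Its 2 bins of every WT list were absent from KO, and none of its 6 KO positions was called in WT. Sox2 had 6.33 ± 1.15 bins in WT and 1.67 ± 1.53 in KO, at 2 KO positions that WT also called. Pou5f1, which encodes OCT4, had no WT bin and 1 bin in 2 of the KO lists.

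In LIF signalling, all 5 genes had a lower mean in KO, beside 61.5% of all genes, though Stat3 (3, 0 and 1 bins in WT and 1 in each KO list) overlapped between the lines. The receptor subunit gene Il6st had 8 in each WT list and none in KO, the feedback inhibitor gene Socs3 had 5, 4 and 3 and none, and the receptor gene Lifr had 6.67 ± 2.31 and 3.67 ± 2.52, which overlapped and had the opposite order at equal list length (SD, n = 3). At equal list length the mean of WT minus KO was 1.33 for Il6st and 0.33 for Socs3, against 8.0 and 4.0 as deposited. In Lifr, too, WT and KO called separate positions, since its 4 bins called in all 3 WT lists were absent from KO and none of its 8 KO positions was called in WT. In the arm of GSK3 and Wnt, the kinase gene Gsk3b had 6 bins in each WT list and 1, 2 and 0 in KO, the catenin gene Ctnnb1 3.33 ± 1.15 and 2.33 ± 0.577, and the repressor gene Tcf7l1 0.667 ± 0.577 in each (SD, n = 3). Over the list, 19 genes had a KO position and 11 of them had none that WT also called. Over all genes with a bin in any KO list, the share with none called in WT was 53.4%.

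**Figure D5:**
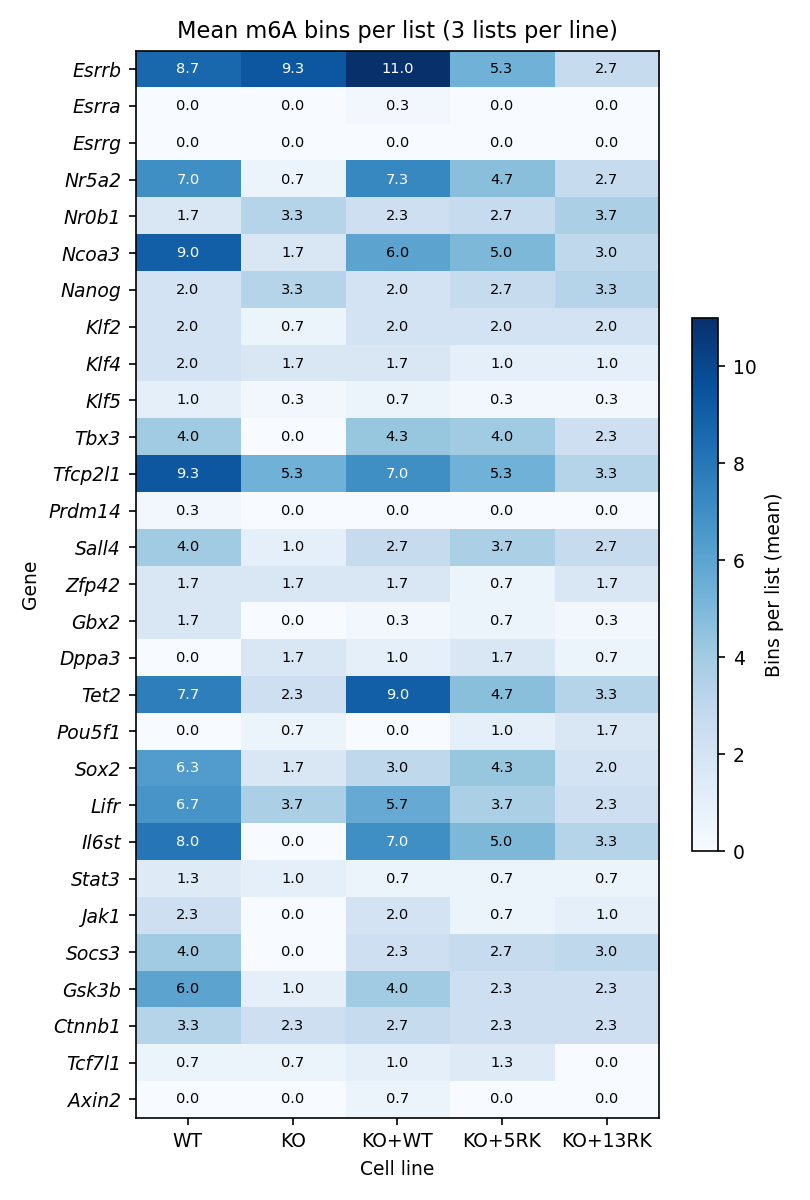
Mean number of called bins per list (numbers and colour, mean of 3 lists) in the 5 lines (columns) for Esrrb and 28 genes of its network (rows). Esrrb has a mean of 9.33 bins in KO and 8.67 in WT, but only 1 of its 21 KO positions was called in any WT list. Of the 8 genes with 6 or more in WT, KO means are 5.33 for Tfcp2l1, 3.67 for Lifr and 2.33 for Tet2, and 1.67 or fewer for Ncoa3, Nr5a2, Il6st, Gsk3b and Sox2.

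The genes most like Esrrb in bins per list were sought among 350 other genes called in every list with at least 45 bins in all. By Pearson's r over the 15 lists they were Kat6b (0.80), Gm38431 (0.69), Klc1 (0.68), Epo (0.68) and Akap12 (0.66), where the median of the 350 was 0.23. Kat6b, a histone acetyltransferase gene, had means of 28.3 bins for WT and 14.3 for KO, then 26.3 for KO+WT and 7.67 and 3.33 for the 5RK and 13RK mutants, so it shared the low mutants with Esrrb but not the level of KO. The 15 points share 5 lines and the length of each list, with which Esrrb itself had an r of 0.32. Per 10000 peaks the first 5 were Eif4g1, Hspg2, Tra2a, Actb and Rlim, with an r of 0.90 for Eif4g1, and no gene was among the first 5 on both scales.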

How the data were processed

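m6A immunoprecipitation libraries of 5 lines, 3 per line, were described from 15 deposited peak lists, 1 per library by its name. Per the submitters' processing notes, STAR 2.5.3a, kallisto 0.43.0 and the build GRCm38 were used, in roles not given, and for the peak caller no setting was found in the labels. A row of a headerless list names a bin of 100 nt, and the enrichment score, p-value and q-value (under 0.05) beside it are the authors' own, as deposited. With scale, read depth and coverage unknown, intervals were not computed, and scores set side by side across lists are a description only. It was computed here, with Python 3.11.15 and pandas 2.3.3, which bins of Esrrb were called in each list. Bins were merged over the lists where they overlapped by 1 nt or more on a strand. No Esrrb bins overlapped, so regions and bins are the same for this gene. A bin was lost between lines when called in all 3 lists of one and in none of the other. The counting was tested on simulated lists. Gene spans and starts are from RefSeq (GRCm38.p6), symbols from a name table that matched 13730 of 13765 genes. Esrrb and the lists were chosen with earlier results of these data known, and no test was made. Named were Esrrb, up to 3 genes with the most bins in each group of the network list and the 5 genes with the highest r. Chosen after their values were seen were genes behind counts of 5 or fewer, Esrra, Esrrg, Nanog, Klf4, Klf5, Sall4, Prdm14, Stat3 and Fn1. So were the leading genes per 10000 peaks, the kinds of position and the minimum value of 1.2. The alternatives were a q under 0.005, an enrichment score at or above the median of all rows (1.36), the 6328 rows of smallest p per list, other merging, calls in 2 or more lists, and lists left out.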

Additional observations from a re-analysis of the deposited data

How the results depend on the processing

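No paired analysis was possible because the results come from no test. Within replicate number 1 the Esrrb bins were 9 (WT), 11 (KO), 9 (KO+WT), 6 (5RK) and 2 (13RK), within number 2 they were 8, 9, 14, 7 and 4, and within number 3 they were 9, 8, 10, 3 and 2. With rows of a q under 0.005, the mean bins per list were 5.33 for WT, 1.33 for KO and 5.0 for KO+WT. With rows at or above the median enrichment they were 3.67 (WT), 6.67 (KO), 4.0 (KO+WT), 2.0 (5RK) and 0.667 (13RK), and with lists of equal length 5.0 for both WT and KO+WT. Bins of every WT list absent from KO numbered 4 by q, 4 at equal length, 2 by the enrichment minimum and 3 as blocks merged within 100 nt. In each case these were all of those called in every WT list. By q and at equal length the 2 recurrent bins of the site that ends 111 nt before the gene end dropped out. From KO+WT to KO 3 were lost by q, at equal length and as blocks (of 4 blocks), and 1 by enrichment. Under the q, length and enrichment settings these were all the Esrrb bins still called in every KO+WT list. From the mutants to KO 0.0 (5RK) and 0.0 (13RK) were lost by enrichment, where no Esrrb bin was left in every list of either mutant. By q 1 (13RK) was lost, the only bin left in every list of that line. From KO to WT 2 were lost as blocks and 7 when calls in 2 or more lists sufficed, and leaving out a replicate gave 1 to 4. From KO+WT to 5RK 0.0 were lost by q, by enrichment and at equal length, 2 when calls in 2 or more lists sufficed, and 1 to 3 without a replicate. From KO+WT to 13RK 1 was lost by q, by enrichment, at equal length and as blocks. It was 1 of the 3 bins left by q and at equal length, the only bin left by enrichment, and 1 of 4 blocks. Shares over all genes under these settings are not given. From WT to KO+WT 1 was lost by enrichment and 1 with calls in 2 or more lists, and 0.0 to 1 without a replicate. Of the network genes, 3 were lost from WT to KO at equal length, and 0.0 were called in every KO list but no WT list by q or at equal length. By the highest bin in place of the mean, the enrichment percentile was 78.6 (WT), 94.3 (KO), 89.5 (KO+WT), 72.1 (5RK) and 55.0 (13RK). At equal length the mean bins of WT minus KO were -0.67 for Tfcp2l1, -2.33 for Lifr and -0.67 for Ctnnb1. They were 2.0 for Gsk3b and 2.67 for Tbx3, against 5.0 and 4.0 as deposited. Fewer rows enter under the q, enrichment and length settings; beyond that the cause was not tested. Leaving out any single list, an alternative chosen after seeing the data, gave 6 to 7 bins lost from WT to KO and 6 from KO+WT to KO. Depth per bin, and so the bins that deeper libraries would add, is unknown.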

Other observations

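The deposited row names number the bins of a gene in order, with numbers left out. What the missing numbers stand for is not given. For Esrrb the last number was 13, 13 and 20 in WT lists and 45, 19 and 44 in KO lists. KO+WT lists ended at 23, 28 and 27, the 5RK lists at 13, 14 and 7, and the 13RK lists at 5, 15 and 6. Rows present made up 69.2%, 61.5% and 45% of the last number in WT and 24.4%, 47.4% and 18.2% in KO. Over all genes this share ran from 52.3% to 60.7% among the 15 lists. The KO lists thus skipped 34, 10 and 36 numbers within Esrrb, and WT lists skipped 4, 5 and 11.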
